A study of Mus musculus with 28 samples.

Results

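The comparison described here is between SIRT1mKO satellite cells after 24 hours in differentiation medium (KO_Diff) and SIRT1mKO satellite cells proliferating in culture (KO_Cul). Its members are the 4 RNA-seq libraries that the labels place in these groups, 2 in each, out of 28 samples in the series (18 RNA-seq libraries and 10 ChIP samples, the latter not analysed here). SIRT1mKO mice carry a Cre knock-in at Pax7, which is active in the satellite cell lineage, together with a Sirt1 allele whose exon 4 is floxed, so that the deacetylase domain is lost in those cells, on a C57Bl/6 background per the labels. All 4 libraries carry this deletion, so the comparison is between media within 1 genotype. KO_Cul cells were grown with 20% FBS and 12.5 ng/ml bFGF, and KO_Diff cells received 2% horse serum. WT libraries in the same media (2 WT_Cul and 2 WT_Diff) were used only to test whether the difference between media was unlike that in KO. Whether the 2 libraries of a group stem from different mice or dishes is not in the labels. Each p-value therefore reflects only library-to-library spread, the source of which was not tested.

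Satellite cells are the stem cells of skeletal muscle. Marked by Pax7, they divide as myoblasts in medium rich in serum and FGF, and when these are withdrawn they leave the cell cycle, switch on Myog, fuse and build sarcomeres. SIRT1 is an NAD-dependent deacetylase, with acetylated lysine 16 of histone H4 among its substrates.

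Depth was 75674366 and 80628431 estimated fragments in the KO_Cul libraries and 81802421 and 82593951 in KO_Diff. The tables name the libraries of a group by an index, 0 or 1, which only names a library and pairs none between media. The cells were muscle lineage cells in every library by their markers. Pax7 was at 87.1 and 66.6 CPM (fragment counts relative to the TMM-scaled library size) in KO_Cul and at 61.4 and 40.9 CPM in KO_Diff, in order of index, as throughout below. Myod1, the determination factor of myoblasts, was at 2460 and 1834 CPM against 1354 and 2051 CPM. Markers of blood cells were near 0: the 8 erythroid markers summed to 0.263 to 0.412 CPM in every library (Hba-a1, Hbb-b1 and Hbb-b2 among those at 0 in all) and the 9 lymphocyte markers to 0.263 to 0.512 CPM (Cd3g, Ms4a1 and Nkg7 at 0 in all). The 12 macrophage and leukocyte markers summed to 5.38 to 10.97 CPM (Emr1 and C1qa at 0 in all) and the 13 endothelial markers to 22.3 to 35.0 CPM. Sirt1 was at 34.8 and 46.8 CPM against 40.3 and 28.6 CPM, and these gene totals do not check the deletion, since transcripts without exon 4 still count.

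The KO_Diff libraries stood far apart from each other. In index 1, 509 of the 14221 genes tested were at least 4-fold higher than in index 0, and 224 were at least 4-fold lower (on CPM + 0.5), whereas the corresponding counts between the KO_Cul libraries were 83 and 90. Xist, which is transcribed from the silenced X, was at 0.370 and 1216 CPM in KO_Cul and at 765 and 0.143 CPM in KO_Diff, and the Y-linked gene Ddx3y was at 37.6 and 32.6 CPM against 23.4 and 79.7 CPM. The libraries with Xist near 0 were thus KO_Cul index 0 and KO_Diff index 1. Whether what these values reflect has a part in the results was not tested.

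With edgeR's quasi-likelihood test, 0 of 14221 genes (0%) passed an adjusted p of 0.05, in either direction. The lowest adjusted p was 0.237. At an unadjusted p under 0.05 there were 1918 genes (13.5%), of which 1403 were higher (9.87%) and 515 lower (3.62%) in KO_Diff. DESeq2 called 1120 of the 14843 genes to which it gave an adjusted p (7.55%), 947 higher (6.38%) and 173 lower (1.17%). With KO_Diff index 0 left out, edgeR called 2672 genes, and with KO_Diff index 1 left out it called 140. In those fits the lone KO_Diff library is assumed to vary as the KO_Cul libraries do. With no test involved, the libraries of the media did not overlap for 48.4% of genes: both KO_Diff libraries lay above both KO_Cul libraries for 3643 genes (25.6%) and below them for 3235 (22.7%). A gap of at least 2-fold between the nearest libraries of the groups (on CPM + 0.5) was found for 565 genes higher in KO_Diff (3.97%) and 137 lower (0.963%). These percentages are the background for the gene lists below, whose members are described by such counts and by the median of their log2 differences (KO_Diff minus KO_Cul, 0.04 over all genes tested, with 52.1% of estimates above 0 and 47.9% below). No gene named below passed edgeR's adjusted threshold over the 4 libraries.

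**Figure D1:**
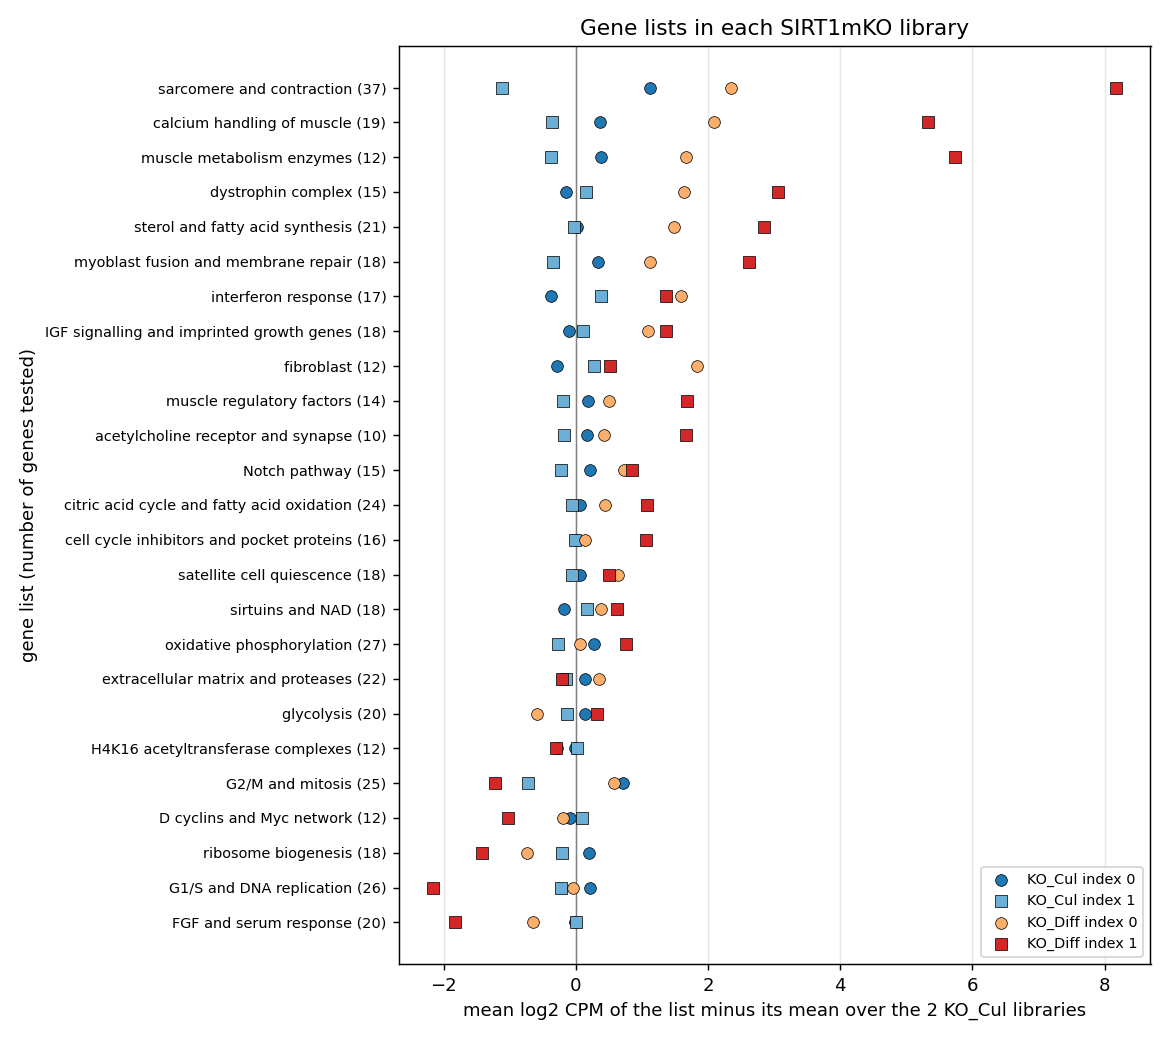
Mean log2 CPM of each of 25 gene lists in each SIRT1mKO library, relative to the mean of that list over the 2 KO_Cul libraries. Circles are index 0 and squares index 1, blue for KO_Cul and orange or red for KO_Diff. The sarcomere, calcium and muscle metabolism lists lie far to the right in KO_Diff index 1 and less so in index 0, the sterol list lies right in both KO_Diff libraries, and the G1/S list lies left in KO_Diff index 1 alone.

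Among the 14 muscle regulatory factors, some were lower in both KO_Diff libraries, some were higher in both, and others overlapped between the groups. Myf5, which marks committed myoblasts, was at 79.4 and 67.4 CPM in KO_Cul and 38.5 and 45.04 CPM in KO_Diff, lower in both libraries (log2 difference -0.81, SE 0.31). Myod1 overlapped between the groups. Myog, the factor that starts terminal differentiation, was at 12.5 and 0.693 CPM in KO_Cul and at 145 and 3591 CPM in KO_Diff. Both KO_Diff libraries lay above both KO_Cul libraries, yet index 1 held 24.7 times as much as index 0, and the log2 difference of 8.15 had an SE of 2.30 (edgeR adjusted p = 0.276). Mef2c, a partner of these factors at muscle genes, showed the same gap, with 0.540 and 0.466 CPM against 2.76 and 86.6 CPM (log2 6.47, SE 1.68). Mef2a (34.9 and 128 CPM against 67.8 and 223 CPM) and Mef2d (78.0 and 64.0 CPM against 67.8 and 193 CPM) overlapped, as Myod1 did. DESeq2 called Myog and Mef2c higher and none of the 14 lower. Of the 14, 5 were higher in both KO_Diff libraries and 3 lower (25.6% and 22.7% of all genes were), with a median of 0.48.

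Genes of the sarcomere, the contractile unit of muscle, were higher in KO_Diff for nearly the whole list. Of 44 members, 37 passed the filter on low counts, and 36 of these had an estimate above 0, the exception being Tpm3, a tropomyosin, at -0.51. The libraries did not overlap for 30 of the 37, all higher in KO_Diff, 18 were apart by at least 2-fold, and DESeq2 called 32 of 44 higher. The median was 7.53. Most of that height came from 1 library: the mean log2 CPM over the list was 2.09 and -0.15 in KO_Cul and 3.32 and 9.14 in KO_Diff, and 34 of the 37 were at least 4-fold higher in KO_Diff index 1 than in index 0. Without KO_Diff index 1 the median was 1.86.

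Single members differed in how far KO_Diff index 0 lay from the proliferating libraries. Smyd1, a muscle methyltransferase and myosin chaperone, was at 5.29 and 2.71 CPM in KO_Cul and 57.5 and 265 CPM in KO_Diff (log2 5.33, SE 0.89). Mybpc1, the slow form of myosin-binding protein C, was at 2.77 and 1.33 CPM against 28.8 and 261 CPM (log2 6.15, SE 1.20). Titin, encoded by Ttn, which spans from Z-disc to M-band, was at 26.4 and 10.95 CPM against 213 and 5778 CPM (log2 7.33, SE 1.75). For these 3 genes index 0 was already clear of both proliferating libraries. That was not so for Myh3, the embryonic myosin heavy chain, with 5.25 and 0.143 CPM against 4.60 and 3903 CPM, where index 0 overlapped KO_Cul. Acta1, skeletal actin, was at 45.3 and 31.4 CPM against 102 and 10251 CPM. Myh3 and Acta1 were chosen after their values were seen.

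**Figure D2:**
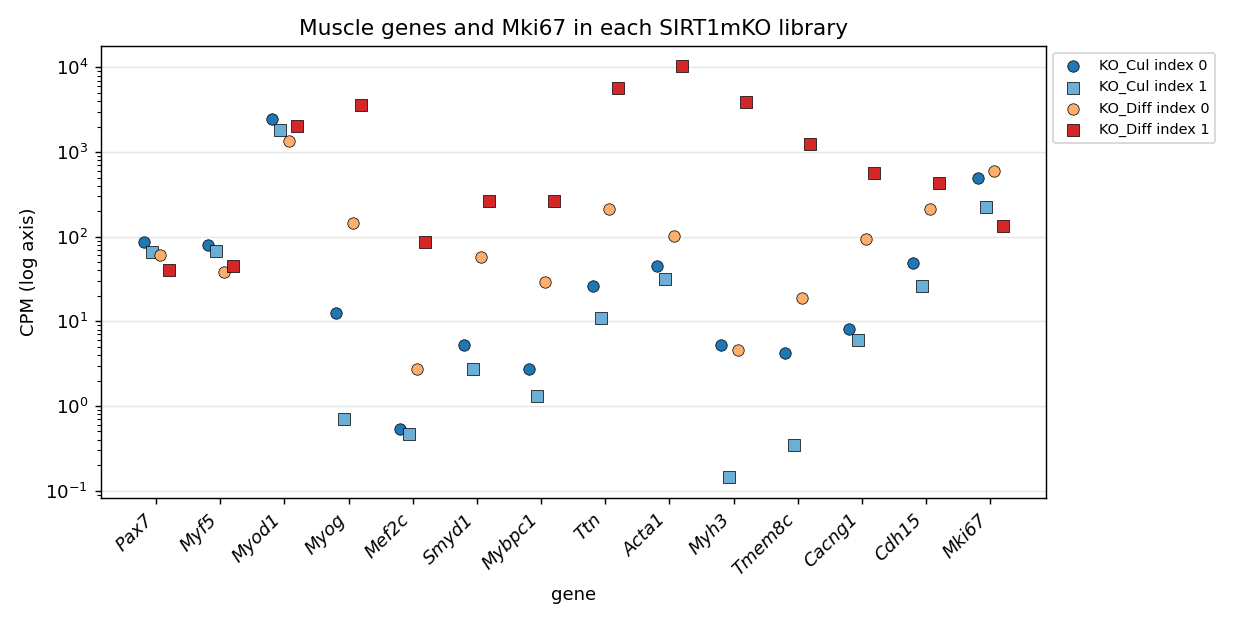
CPM on a log axis of 13 muscle genes and the proliferation gene Mki67 in each SIRT1mKO library (circles index 0, squares index 1, blue KO_Cul, orange and red KO_Diff). Pax7, Myf5 and Myod1 lie close together in all 4 libraries, while Myog, Ttn, Acta1, Myh3 and Tmem8c are highest in KO_Diff index 1 and Mki67 is lowest there.

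The machinery that couples excitation to calcium release was higher likewise. Of 19 calcium handling genes tested, 18 had estimates above 0, 17 were higher in both KO_Diff libraries, 11 by at least 2-fold, and 1, the IP3 receptor gene Itpr1, was lower in both (63.7 and 74.8 CPM against 58.6 and 20.5 CPM). DESeq2 called 16 of 20 higher, and the median was 5.43, or 1.77 without KO_Diff index 1. Cacng1, a subunit of the muscle calcium channel, was at 8.10 and 5.95 CPM in KO_Cul and 94.1 and 563 CPM in KO_Diff (log2 5.55, SE 0.95). Casq1, which stores calcium in the sarcoplasmic reticulum, was at 0.483 and 0.418 CPM against 2.85 and 18.1 CPM (log2 4.54, SE 1.02). Both genes were clearly above the proliferating level in index 0 as well. Pvalb, a calcium buffer, was at 0 in both KO_Cul libraries and at 0.702 and 0.469 CPM in KO_Diff. It passed the filter on low counts through KO_Diff and so could only count as higher.

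Fusion and membrane repair genes were split. Of 18 tested, 9 were higher in both KO_Diff libraries and 2 lower (25.6% and 22.7% of all genes were). The median was 0.64, and DESeq2 called 6 of 19 higher and 1 lower. Cdh15, the cadherin of myoblast contacts, was at 49.4 and 26.2 CPM in KO_Cul and 215 and 426 CPM in KO_Diff (log2 3.08, SE 0.53), with both differentiating libraries well clear. The fusogen genes Tmem8c (myomaker) and Gm7325 (myomixer) were far higher in index 1: Tmem8c was at 4.25 and 0.346 CPM against 18.7 and 1234 CPM, and Gm7325 at 0.256 and 0.0119 CPM against 5.84 and 89.9 CPM (log2 8.51, SE 1.94). Tmem8c was chosen after its values were seen. Adam12, a membrane metalloprotease, went the other way, from 155 and 166 CPM to 62.6 and 34.8 CPM (log2 -1.72, SE 0.39).

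Enzymes typical of muscle fibres, 12 tested, had a median of 4.83 (1.52 without KO_Diff index 1), and 9 were higher in both KO_Diff libraries. Among the 9, Art1 (0.0284 and 0 CPM against 0.136 and 13.1 CPM) passed the filter on low counts through KO_Diff. It could only count as higher. Pygm, muscle glycogen phosphorylase, was at 4.35 and 3.27 CPM against 19.8 and 426 CPM (log2 5.87, SE 1.49). Pgam2, the muscle phosphoglycerate mutase, was at 0.910 and 0.167 CPM against 11.8 and 305 CPM (log2 8.21, SE 1.96), and Cox8b, a cytochrome oxidase subunit, at 0.142 and 0.310 CPM against 2.35 and 44.04 CPM (log2 6.66, SE 1.54). All 3 were high mainly in index 1. Genes of the dystrophin complex, which links the cytoskeleton to the basal lamina, were more alike between the KO_Diff libraries: 14 of 15 were higher in both, 6 by at least 2-fold, and the median was 1.89, or 1.20 without index 1. Lamb2, a laminin chain of that lamina, was at 60.3 and 54.4 CPM against 163 and 259 CPM (log2 1.88, SE 0.37). The syntrophin gene Sntb1 had a wider gap between the KO_Diff libraries, at 0.654 and 0.310 CPM against 6.63 and 121 CPM.

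At the neuromuscular synapse, Rapsn, which clusters acetylcholine receptors, was at 54.5 and 63.7 CPM in KO_Cul and 171 and 204 CPM in KO_Diff (log2 1.67, SE 0.32), and Musk, the agrin-responsive kinase, at 44.4 and 50.0 CPM against 95.6 and 105 CPM (log2 1.09, SE 0.30). These 2 were nearly equal in the KO_Diff libraries. The fetal receptor subunit gene Chrng was not, at 12.7 and 6.76 CPM against 24.4 and 667 CPM (log2 5.15, SE 1.55). Of 10 genes tested, 5 were higher in both KO_Diff libraries and none lower (25.6% and 22.7% of all genes were). The median was 1.11, or 0.56 without index 1.

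Promoters of 2 sarcomere genes are shown because members of that list were higher together and both hold the E-box CAGCTG, a sequence bound by myogenic factors of the Myod1 family. The windows are 250 bases before to 50 after the start site from RefSeq (GRCm38.p6, both on the minus strand, Acta1 at chr8:123894726-123895025 and Mybpc1 at chr10:88605103-88605402), and the motif is in capitals.
Acta1: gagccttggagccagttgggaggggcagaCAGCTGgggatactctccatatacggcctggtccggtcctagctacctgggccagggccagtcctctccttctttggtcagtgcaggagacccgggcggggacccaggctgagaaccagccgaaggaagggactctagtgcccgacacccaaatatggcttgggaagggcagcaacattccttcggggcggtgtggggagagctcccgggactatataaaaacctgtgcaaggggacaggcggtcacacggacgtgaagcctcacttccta
Mybpc1: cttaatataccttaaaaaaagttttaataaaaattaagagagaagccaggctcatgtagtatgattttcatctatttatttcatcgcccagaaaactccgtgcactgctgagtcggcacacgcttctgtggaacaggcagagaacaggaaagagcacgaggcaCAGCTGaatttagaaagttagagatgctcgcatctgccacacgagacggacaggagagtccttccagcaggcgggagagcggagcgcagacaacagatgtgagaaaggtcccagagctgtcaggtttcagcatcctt
On both strands, CAGCTG was found in 10 of 29 sarcomere windows (34.5%) and in 4353 of 27025 windows of all genes (16.1%). The letters TATTTATA, a core of the sites bound by Mef2 factors, were found in 2 of the 29 (6.9%) and in 479 of all (1.77%). A match is a description of the sequence and does not show binding.

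For the cell cycle genes the KO_Diff libraries differed from each other more than the media did. All 26 G1/S and DNA replication genes had estimates below 0, with a median of -0.80. Both KO_Diff libraries lay below both KO_Cul libraries for only 8 (22.7% of all genes did), none by 2-fold. The mean log2 CPM over the list was 7.31 and 6.88 in KO_Cul and 7.05 and 4.94 in KO_Diff, so that index 0 lay within the proliferating range. The median was -2.27 without KO_Diff index 0 and -0.12 without index 1. The licensing factor gene Cdc6 was at 120 and 71.98 CPM against 68.3 and 12.1 CPM (log2 -1.26, SE 0.79). E2f1, a transcription factor of S-phase entry, was at 110 and 87.4 CPM against 77.9 and 21.8 CPM (log2 -0.98, SE 0.61). Each was lowest in KO_Diff index 1.

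For 25 mitotic genes the groups overlapped without exception, and their median of -0.23 changed sign to 0.63 without KO_Cul index 0 and to 0.38 without KO_Diff index 1. Cdk1, the mitotic kinase, was at 343 and 119 CPM in KO_Cul and 199 and 64.4 CPM in KO_Diff. Cenpa, the histone of centromeres, was at 163 and 24.8 CPM against 75.4 and 25.0 CPM, and Aurkb, a kinase of chromosome segregation, at 118 and 58.0 CPM against 97.1 and 18.8 CPM. In each case KO_Diff index 0 lay between the proliferating libraries. Mki67, chosen after its values were seen, was higher in KO_Diff index 0 (603 CPM) than in either KO_Cul library (497 and 223 CPM) and lowest in index 1 (134 CPM).

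Cell cycle inhibitors and pocket proteins overlapped between the media for most of the list. Of 16 tested, 6 were higher in both KO_Diff libraries and none lower (25.6% and 22.7% of all genes were). None had a 2-fold gap. The median was 0.70 (0.20 without index 1), and DESeq2 called Cdkn1c alone higher (6.38% of all its genes were). Ccng1, a p53 target, was near equal in the KO_Diff libraries, at 141 and 153 CPM against 300.02 and 279 CPM (log2 0.98, SE 0.31). The inhibitor gene Cdkn1c was high in index 1 only, at 0.839 and 1.23 CPM against 1.40 and 24.0 CPM, and the retinoblastoma gene Rb1 was at 23.3 and 45.7 CPM against 49.7 and 196 CPM. Cdkn1a, which encodes p21 and was chosen after its values were seen, overlapped between groups, at 314 and 305 CPM against 312 and 2374 CPM.

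Genes that answer to FGF and serum were mostly lower in KO_Diff, and for 10 of 20 both libraries took part. Of 20 tested, 15 had estimates below 0, 10 were lower in both KO_Diff libraries, 6 by at least 2-fold, against 3 higher in both, and the median was -1.24. DESeq2 called 6 lower and 1 higher. Spry4, a feedback inhibitor of receptor tyrosine kinases, was at 57.5 and 58.0 CPM in KO_Cul and 10.7 and 3.38 CPM in KO_Diff (log2 -3.03, SE 0.62). Dusp6, the ERK phosphatase, was at 80.7 and 71.6 CPM against 18.0 and 6.61 CPM (log2 -2.63, SE 0.55). The AP-1 subunit gene Fosl1 was at 112 and 111 CPM against 30.9 and 5.96 CPM and the phosphatase gene Dusp5 at 85.1 and 45.6 CPM against 11.3 and 2.43 CPM, both chosen after their values were seen. Each was low in both KO_Diff libraries and lower in index 1. Fgfr4, a receptor of the muscle lineage, was among the 3 members higher in both KO_Diff libraries, at 27.2 and 15.5 CPM against 95.6 and 265 CPM (log2 3.08, SE 0.61). Other members overlapped between the groups. Among these Egr1 was at 118 and 154 CPM against 430 and 42.7 CPM, highest in KO_Diff index 0 and lowest in index 1. The median was -2.08 without KO_Diff index 0 and -0.74 without index 1.

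Myc, the growth factor-induced regulator of ribosome production, was at 500.2 and 536 CPM in KO_Cul and 148 and 42.5 CPM in KO_Diff (log2 -2.45, SE 0.63). Its target Odc1, the first enzyme of polyamine synthesis, was at 1370 and 1325 CPM against 654 and 260 CPM (log2 -1.56, SE 0.51). Mxd4, an antagonist of Myc, was at 2.79 and 3.83 CPM against 10.5 and 21.6 CPM (log2 2.28, SE 0.54). Of the 12 genes in this list of D cyclins and the Myc network, 6 were lower in both KO_Diff libraries and 2 higher (22.7% and 25.6% of all genes were). Among them Ccnd1, the growth factor-dependent cyclin D1 and chosen after its values were seen, was at 1959 and 1703 CPM against 955 and 86.7 CPM. In ribosome biogenesis, all 18 had estimates below 0, and 17 were lower in both KO_Diff libraries, against 22.7% of all genes. No member reached a 2-fold gap, DESeq2 called 2 lower, and the median was -1.10. Polr1b, a subunit of RNA polymerase I, was at 166 and 132 CPM against 68.7 and 35.7 CPM (log2 -1.51, SE 0.42). The assembly factor genes Nop16 and Rrp9 were at 170 and 125 CPM against 69.3 and 43.96 CPM and at 156 and 125 CPM against 71.8 and 56.1 CPM. The median was -0.72 without KO_Diff index 1.

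Sterol and fatty acid synthesis genes were higher in both KO_Diff libraries for nearly the whole list. Of 21 genes tested, 20 had estimates above 0, 19 were higher in both KO_Diff libraries, against 25.6% of all genes, and 15 by at least 2-fold, against 3.97%. Acaca, the first enzyme of fatty acid synthesis, was the single member lower in both (168 and 153 CPM against 148 and 131 CPM). DESeq2 called 16 higher, and the median was 2.47, with 3.10 without KO_Diff index 0 and 1.54 without index 1. Insig1, the sterol sensor that holds SREBP in the endoplasmic reticulum and is itself an SREBP target, was at 36.2 and 35.5 CPM in KO_Cul and 191 and 377 CPM in KO_Diff (log2 2.98, SE 0.44). Idi1, the isopentenyl diphosphate isomerase, was at 27.0 and 31.5 CPM against 199 and 750.2 CPM (log2 4.02, SE 0.71). Cyp51, which demethylates lanosterol, was at 25.9 and 25.3 CPM against 146 and 531 CPM (log2 3.73, SE 0.68). The KO_Cul libraries lay close together for these genes, and both KO_Diff libraries far above them. Fdps, the farnesyl diphosphate synthase, and Scd2, a fatty acid desaturase, both chosen after their values were seen, were at 37.6 and 30.3 CPM against 174 and 948 CPM and at 120 and 146 CPM against 617 and 2319 CPM. Srebf1, which encodes the SREBP of fatty acid synthesis, differed little (104 and 91.2 CPM against 108 and 112 CPM). Hmgcs1 was listed at 0 in all 4 libraries, which can be a failed estimate and does not show absence. Beside this list, the 9 adipocyte markers summed to 48.7 and 54.7 CPM in KO_Cul and 148 and 150.1 CPM in KO_Diff, mostly Lpl, a lipoprotein lipase gene (30.1 CPM at most in KO_Cul and 110 CPM at least in KO_Diff). Of the 5 adipocyte markers tested, 2 were higher in both KO_Diff libraries and none lower (25.6% and 22.7% of all genes were). These were Lpl and Pparg (2.43 and 3.89 CPM against 10.1 and 25.6 CPM). The defining markers Adipoq and Plin1 were under 0.1 CPM in every library.

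Promoters of 2 sterol genes are shown because these members were higher together and both hold CCAAT, the box bound by NF-Y, which acts with SREBP at many sterol genes. The windows are again from RefSeq (GRCm38.p6, both on the plus strand, Idi1 at chr13:8885356-8885655 and Insig1 at chr5:28071162-28071461), and the capitals mark CCAAT read on the opposite strand.
Idi1: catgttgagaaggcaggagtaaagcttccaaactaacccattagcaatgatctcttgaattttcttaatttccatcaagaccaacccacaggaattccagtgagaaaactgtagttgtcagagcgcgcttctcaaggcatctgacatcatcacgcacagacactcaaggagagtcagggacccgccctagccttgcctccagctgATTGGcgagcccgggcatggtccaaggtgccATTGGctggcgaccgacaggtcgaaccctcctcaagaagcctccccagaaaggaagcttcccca
Insig1: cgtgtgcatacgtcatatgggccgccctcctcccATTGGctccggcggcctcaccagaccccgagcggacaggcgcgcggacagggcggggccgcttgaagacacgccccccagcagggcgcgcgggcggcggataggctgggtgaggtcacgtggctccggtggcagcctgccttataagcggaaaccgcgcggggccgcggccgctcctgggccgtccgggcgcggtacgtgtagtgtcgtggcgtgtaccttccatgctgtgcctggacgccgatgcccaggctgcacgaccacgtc
CCAAT was found on either strand in 10 of 13 sterol windows (76.9%) and in 10248 of 27025 windows of all genes (37.9%). The SREBP element TCACNCCAC was found in none of the 13 and in 330 of all (1.22%), which says only that these letters are not in these windows.

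**Figure D3:**
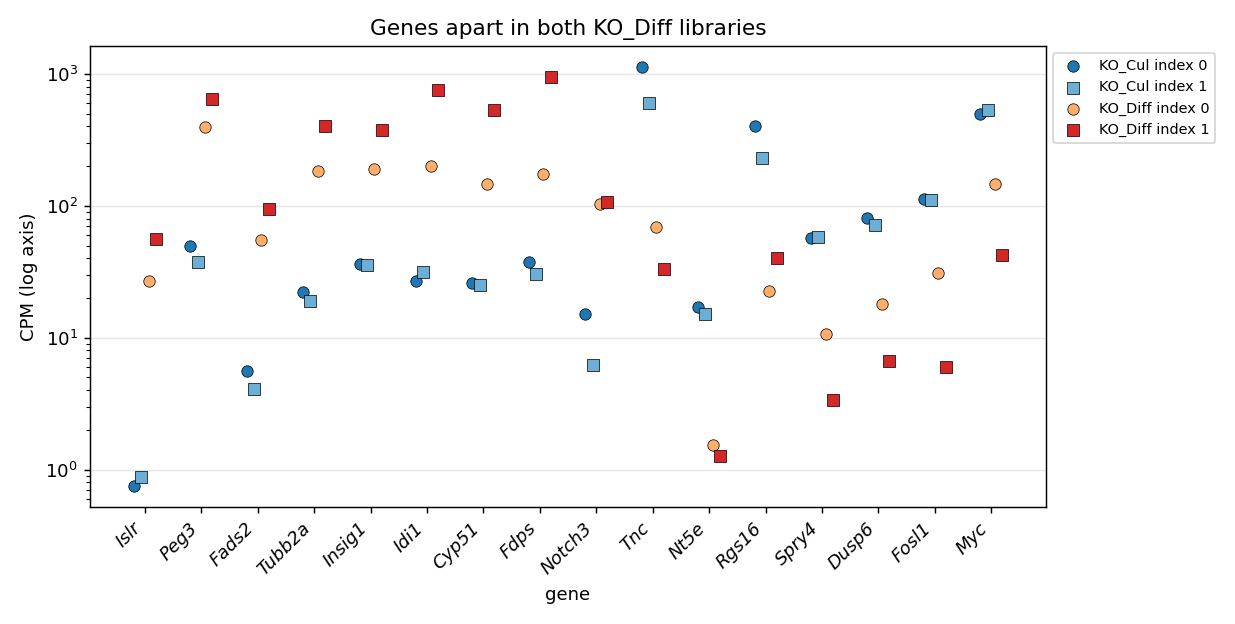
CPM on a log axis of 16 genes in each SIRT1mKO library (circles index 0, squares index 1, blue KO_Cul, orange and red KO_Diff). The first 9 genes, from Islr to Notch3, are higher and the last 7, from Tnc to Myc, are lower in both KO_Diff libraries than in either KO_Cul library.

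In energy metabolism, glycolysis was mixed and most oxidative phosphorylation genes overlapped between the media. Of 20 glycolysis genes, 8 were lower in both KO_Diff libraries and 4 higher (22.7% and 25.6% of all genes were). Pfkfb3, which makes the activator of phosphofructokinase, was at 39.6 and 34.3 CPM against 9.25 and 11.2 CPM (log2 -1.85, SE 0.36), and the liver-type phosphofructokinase gene Pfkl at 279 and 242 CPM against 90.1 and 103 CPM (log2 -1.43, SE 0.32). Ldhb, the lactate dehydrogenase subunit of oxidative tissue, was at 14.0 and 16.8 CPM against 52.7 and 65.8 CPM (log2 1.94, SE 0.34). These 3 were near equal between the libraries of each medium, which their choice by the smallest p favours. For oxidative phosphorylation all 27 estimates were above 0 (26 with RLE factors), with a median of 0.40, but 4 were higher in both KO_Diff libraries (25.6% of all genes were), and the median was 0.07 without KO_Cul index 1 and 0.04 without KO_Diff index 1. The succinate dehydrogenase gene Sdhc was at 146 and 126 CPM against 183 and 262 CPM. The citric acid cycle and fatty acid oxidation list had 15 of 24 higher in both KO_Diff libraries and a median of 0.65 (0.33 without index 1), led by Ppargc1a, a coactivator of mitochondrial genes (0.569 and 0.716 CPM against 2.80 and 11.5 CPM, log2 3.47, SE 0.85), and by Cpt1b, the muscle carnitine palmitoyltransferase (3.34 and 4.63 CPM against 12.5 and 61.2 CPM, log2 3.21, SE 0.81).

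In the Notch pathway, which holds satellite cells undifferentiated, the receptor gene Notch3 was at 15.1 and 6.17 CPM in KO_Cul and 104 and 107 CPM in KO_Diff (log2 3.31, SE 0.52), nearly equal in the KO_Diff libraries. Its target Hey1 was at 3.72 and 4.18 CPM against 16.4 and 19.9 CPM (log2 2.20, SE 0.42), and Heyl at 5.73 and 1.61 CPM against 16.5 and 72.3 CPM (log2 3.60, SE 0.95). Of 15 members, 5 were higher in both KO_Diff libraries and 2 lower, Jag1 and Maml1 (25.6% and 22.7% of all genes were), with a median of 0.54. Among the 5 was Hey2, at 0.0995 and 0.0597 CPM against 0.260 and 0.156 CPM. Hey2 passed the filter on low counts through KO_Diff and so could only count as higher. Rbpj was left out because its status was not OK. The list of satellite cell quiescence genes, which shares Notch3, Hey1 and Heyl, had 8 of 18 higher and 4 lower (25.6% and 22.7% of all genes were). Among the 4 lower was Sdc4, a heparan sulfate proteoglycan (541 and 491 CPM against 188 and 57.7 CPM).

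The insulin-like growth factor and imprinted growth genes had 11 of 18 members higher in both KO_Diff libraries and 2 lower, with a median of 0.88, and DESeq2 called 8 higher. Peg3, a paternally expressed zinc finger gene, was at 49.6 and 37.6 CPM in KO_Cul and 394 and 641 CPM in KO_Diff (log2 3.57, SE 0.43). Igf1 was at 0.114 and 0.299 CPM against 3.10 and 3.51 CPM (log2 3.99, SE 0.78), and Igfbp7, a secreted binding protein, at 7.22 and 6.04 CPM against 33.2 and 23.1 CPM (log2 2.09, SE 0.41). All 3 were alike in the KO_Diff libraries. Igf2, the growth factor of differentiating myoblasts, chosen after its values were seen, was at 17.8 and 14.7 CPM against 82.0 and 2245 CPM (log2 6.16, SE 1.59). H19, its imprinted neighbour, was left out because its status was not OK in the KO_Diff libraries.

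Matrix genes as a list were not set apart from all genes by their median. It was 0.02, against 0.04 over all genes tested. Of 22, 8 were higher in both KO_Diff libraries and 5 lower (25.6% and 22.7% of all genes were). Tnc, tenascin C of remodelling tissue, was at 1132 and 602 CPM in KO_Cul and 69.2 and 32.9 CPM in KO_Diff (log2 -4.08, SE 0.59). Col6a1 and Col6a2, chains of the collagen VI around muscle fibres, were at 9.65 and 4.49 CPM against 61.4 and 92.9 CPM (log2 3.45, SE 0.52) and at 7.48 and 5.27 CPM against 28.4 and 38.8 CPM (log2 2.40, SE 0.42). Of the fibroblast markers, 12 of 14 were tested, with a median of 1.19 (-0.06 without KO_Diff index 0), and 5 were higher in both KO_Diff libraries, Col1a1, Col1a2, Col3a1, Col5a1 and Ly6a. Col1a1 was at 6.14 and 5.66 CPM against 20.9 and 48.8 CPM (log2 2.56, SE 0.53) and Ly6a at 0.0853 and 0.0955 CPM against 2.12 and 1.93 CPM (log2 4.46, SE 0.73). Ly6a passed the filter on low counts through KO_Diff and so could only count as higher. The 14 markers summed to 1185 and 803 CPM in KO_Cul and 1836 and 1492 CPM in KO_Diff, while the defining markers Pdgfra (0.569 and 3.18 CPM against 5.31 and 0.989 CPM) and Dcn (1.61 and 15.4 CPM against 23.8 and 0.859 CPM) overlapped. The 10 pericyte and smooth muscle markers summed to 146 and 137 CPM against 300.1 and 3248 CPM, of which Acta2 made up 2949 CPM in KO_Diff index 1. Of the 8 tested, 4 were higher in both KO_Diff libraries and none lower. These were Acta2, Abcc9, Cspg4 (69.5 and 36.8 CPM against 118 and 158 CPM) and Pdgfrb (1.28 and 3.32 CPM against 4.52 and 15.4 CPM). Abcc9 (0.0284 and 0.0716 CPM against 0.294 and 24.9 CPM) also passed the filter through KO_Diff and could only count as higher. Rgs5 was under 0.1 CPM in every library. In bulk libraries fewer cells of a type and less RNA per cell cannot be told apart, and the part of other cell types in these results was not tested.

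Among 17 interferon response genes, 11 were higher in both KO_Diff libraries (25.6% of all genes were) and none lower, with a median of 1.56, at low levels. DESeq2 called 3 of 17 higher. Usp18 (0.0142 and 0.0239 CPM against 0.147 and 0.156 CPM) and Mx2 (0 and 0.0597 CPM against 0.147 and 0.534 CPM) passed the filter on low counts through KO_Diff. Such genes can only count as higher, which raises the count and the median. Stat2, a signal transducer of type I interferon, was at 4.90 and 7.02 CPM in KO_Cul and 17.2 and 47.5 CPM in KO_Diff (log2 2.44, SE 0.60). The RNA sensor gene Ddx58 was at 1.75 and 3.90 CPM against 20.0 and 7.56 CPM (log2 2.28, SE 0.70). Ddx58 was highest in KO_Diff index 0, unlike the muscle genes.

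Sirtuin and NAD genes differed little between media, with a median of 0.38 over 18 genes. In both KO_Diff libraries 6 were higher and 2 lower (25.6% and 22.7% of all genes were). Itgb1bp3 (also Nmrk2), the muscle nicotinamide riboside kinase, was the one that DESeq2 called, at 2.05 and 6.48 CPM against 10.3 and 286 CPM (log2 5.12, SE 1.64). Nadk, the NAD kinase, was at 317 and 302 CPM against 239 and 158 CPM (log2 -0.64, SE 0.36), and Nnmt, which methylates nicotinamide, at 1.24 and 1.78 CPM against 3.19 and 4.69 CPM (log2 1.38, SE 0.59). The 12 genes of the complexes that acetylate lysine 16 of histone H4 had a median of -0.25. Estimates were below 0 for 11, and 5 were lower in both KO_Diff libraries (47.9% and 22.7% of all genes were). The scaffold gene Wdr5 was at 201 and 150.0 CPM against 104 and 80.6 CPM (log2 -0.93, SE 0.34), and Myst1 (also Kat8), the acetyltransferase itself, overlapped.

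Over all genes, the 10 smallest p-values in each direction (among genes that did not overlap and reached 5 CPM) came with an adjusted p of 0.237 by edgeR. On the higher side Islr, a secreted immunoglobulin-repeat protein, was at 0.753 and 0.872 CPM in KO_Cul and 26.7 and 56.3 CPM in KO_Diff (log2 5.67, SE 0.57). Next came Arhgef10l, a guanine nucleotide exchange factor (5.81 and 8.34 CPM against 82.97 and 123 CPM), and Fads2, a fatty acid desaturase (5.63 and 4.06 CPM against 54.7 and 95.3 CPM). Gstm2, a glutathione transferase, was at 5.44 and 4.45 CPM against 35.9 and 44.5 CPM and the tubulin gene Tubb2a at 22.3 and 19.03 CPM against 185 and 405 CPM. Col12a1, a fibril-associated collagen, was at 7.35 and 4.85 CPM against 52.3 and 43.8 CPM. Eef1a2, the elongation factor form of adult muscle and nerve, was at 0.0426 and 0.0478 CPM against 2.91 and 8.34 CPM (log2 6.91, SE 0.93). It passed the filter on low counts through KO_Diff and so could only lie on the higher side. Also in this set were Peg3 (above) and Apeg3, antisense to Peg3, whose fragments cannot be told apart from those of Peg3 without strand, and Pmp22, a myelin protein gene. Pmp22 was at 9.89 and 14.6 CPM against 101 and 73.1 CPM. The 9 Schwann cell markers, Pmp22 among them, summed to 36.8 and 65.8 CPM against 228 and 208 CPM. Of these, 2 were higher in both KO_Diff libraries, Pmp22 and Erbb3 (1.82 and 1.80 CPM against 6.34 and 108 CPM). The defining gene Sox10 was the 1 lower in both, at 4.09 and 7.52 CPM against 3.11 and 1.98 CPM.

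On the lower side, Nt5e, the ectonucleotidase CD73, was at 17.2 and 15.0 CPM in KO_Cul and 1.54 and 1.26 CPM in KO_Diff (log2 -3.52, SE 0.47). Pgf, a growth factor of the VEGF family, was at 26.2 and 17.9 CPM against 2.76 and 2.16 CPM (log2 -3.16, SE 0.46), and Rgs16, a brake on G protein signalling, at 403 and 229 CPM against 22.5 and 40.3 CPM (log2 -3.33, SE 0.49). Also in this set were Tnc (above), the transmembrane collagen gene Col13a1 (35.0 and 26.0 CPM against 2.12 and 3.84 CPM), Nptx1 (458 and 772 CPM against 60.3 and 25.4 CPM), Kcnf1 (27.0 and 43.9 CPM against 2.79 and 5.05 CPM), AA467197 (54.5 and 25.8 CPM against 2.79 and 2.03 CPM) and the PACAP receptor gene Adcyap1r1 (152 and 44.3 CPM against 5.46 and 2.90 CPM). For the genes named here the ratio of KO_Diff index 1 to index 0 ran from 0.426 (Nptx1) to 1.77 (Rgs16). A choice by the smallest p favours genes with little spread within a group, so this range is not a separate result.

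WT cells in the same media were used to ask whether the difference between media was unlike that in KO. In a fit of 8 libraries, the difference of the KO change and the WT change passed for 0 of 14843 genes with edgeR (0%, and 36 at an unadjusted p under 0.05, or 0.243%) and for 0 of the 18456 genes with an adjusted p from DESeq2 (0%). The list medians were 7.45 in KO and 6.35 in WT for the sarcomere, 5.45 and 3.80 for calcium handling, 2.44 and 2.74 for sterol synthesis, and -1.24 and -1.07 for the FGF response. They were 0.81 in KO and 0.05 in WT for fusion genes and 0.71 and 1.51 for fibroblast markers. Glycolysis (-0.15 and 0.09) and matrix genes (0.01 and -0.14) had medians of opposite sign near 0. No test was made of these medians. The wide gap between libraries of differentiating cells was also there in WT_Diff, where Myog was at 61.2 and 1931 CPM (in this fit, index 0 and 1), Ttn at 185 and 2350 CPM and Mki67 at 551 and 110 CPM. Genes are named here from those with at least 5 CPM in at least 1 group, with predicted genes passed over. Peg3 had the smallest p among those with a larger change in KO. Its log2 change was 3.55 in KO (SE 0.55) and 1.43 in WT (SE 0.51), a difference of 2.12 (SE 0.72, unadjusted p = 0.0208 and adjusted p = 1.00 by edgeR). Its neighbour Zim1, also imprinted, had log2 changes of 4.14 and 2.04, a difference of 2.10 (SE 0.72). The next genes were Dyrk2 and Akap13, with differences of 1.45 (SE 0.55) and 1.26 (SE 0.49). On the other side, Sh3bgrl3 (-0.79), Praf2 (-0.91) and Npcd (-1.15) had the lowest p-values of that direction among the same genes. Their unadjusted p-values by edgeR were 0.0769, 0.0794 and 0.0850, and none passed. Within a medium, same-numbered KO and WT libraries deviated together (correlation 0.67 in Cul and 0.77 in Diff), and with the index within each medium as a block 0 genes passed as well. A p that misses the threshold does not show that the genotypes respond alike.

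**Figure D4:**
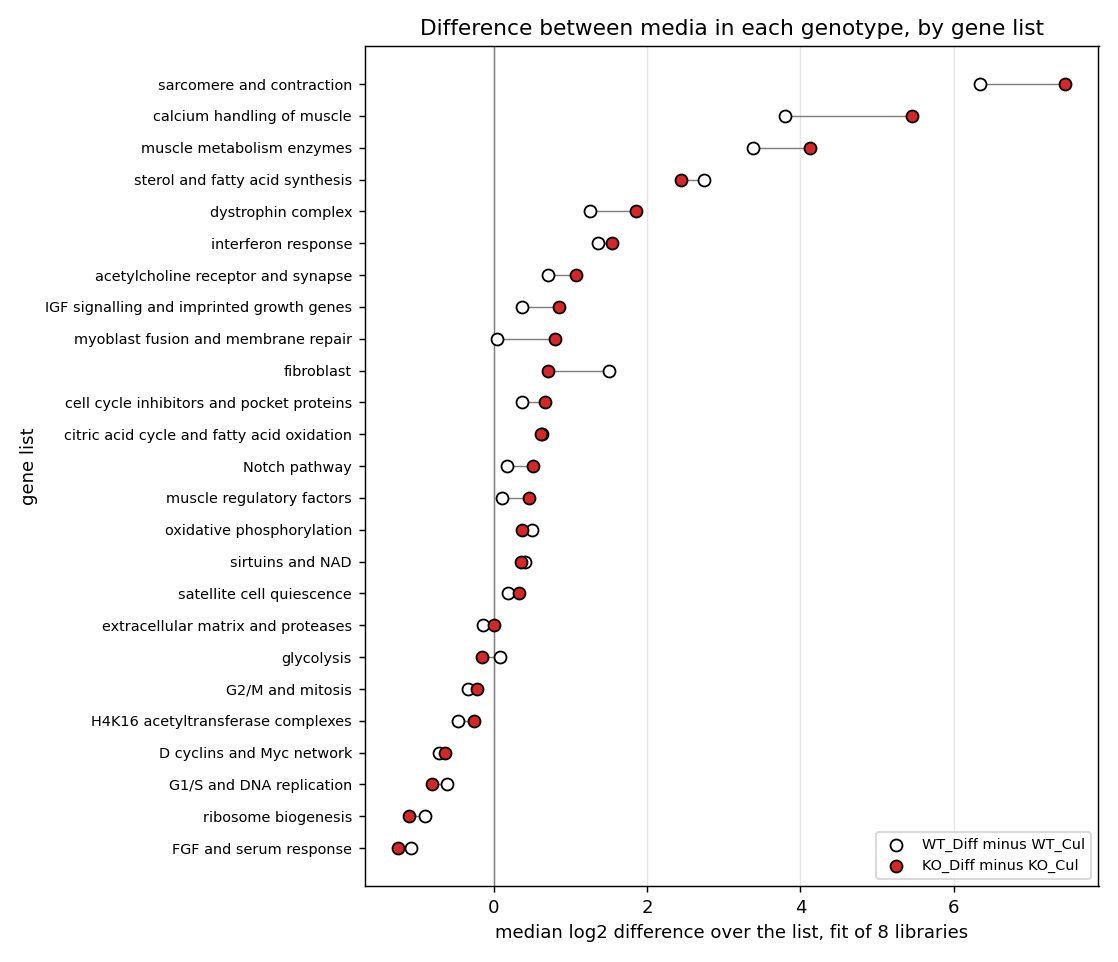
Median log2 difference between media for each of 25 gene lists in the fit of 8 libraries, red for KO_Diff minus KO_Cul and white for WT_Diff minus WT_Cul. The sarcomere list is highest (7.45 in KO, 6.35 in WT) and the FGF and serum response list lowest (-1.24 and -1.07) in both genotypes, and the calcium, fusion and fibroblast lists show some of the wider gaps.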

How the data were processed

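PolyA RNA-seq values were used from 2 tables, 1 for proliferating cells and 1 for differentiation medium, in Cuffdiff's format with 1 line for each gene in each library, per the file headers. Values are estimated counts of fragments as deposited by the authors, and in the 4 SIRT1mKO libraries 1.42% to 1.50% of those above 0 deviated from a whole number by more than 0.01. The submitters' processing notes name Bowtie, TopHat, Cuffdiff, SICER and the build mm9, without roles or versions. Strand is not stated. The proliferating table's letter was matched to Cul because the other conditions were accounted for. Only an index names the libraries of a group.

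The tables were joined on gene symbol. Of 22552 genes, 22 without status OK in every library of both tables were left out. Estimated counts were rounded and fitted in R 4.3.3 with edgeR 4.0.16 (TMM, filterByExpr, robust quasi-likelihood F test), and p-values were adjusted by Benjamini-Hochberg across every tested gene, at a threshold of 0.05. The tables were processed separately by the authors, so a difference between media can hold one between their runs. DESeq2 1.42.0, limma 3.58.1, RLE factors, no filter, an index block, a fit of 8 libraries and leaving out each library were alternatives. Tests were checked on simulated data, with recovery of the changes required only at a spread set low. That check does not show that the tests could find changes at the spread of these data. Chi-square per degree of freedom was 342 between the KO_Cul libraries and 1200 between the KO_Diff libraries, so none was a copy.

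The members and the gene lists were chosen with earlier results of these data known. Lists share members. Named genes are Sirt1, Pax7, Myf5, Myod1 and Myog, 10 per direction with the smallest p among genes that did not overlap and reached 5 CPM in the higher group, the 3 smallest p of each list, and 4 per direction for the difference between genotypes. A choice by the smallest p favours genes whose libraries lie close together within a group. Other genes named with values were chosen after their values were seen. Promoter windows came from RefSeq, GRCm38.p6, and matched 29 sarcomere and 13 sterol genes. Results for some genes are left out of the text.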

Additional observations from a re-analysis of the deposited data

Results flagged for a closer look

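For Dyrk2, a protein kinase gene, both KO_Diff libraries lay above both KO_Cul libraries (28.7 and 55.6 CPM against 17.7 and 21.3 CPM in the fit of 8 libraries), while both WT_Diff libraries lay below both WT_Cul libraries (27.0 and 20.1 CPM against 27.3 and 32.3 CPM). The difference of the 2 log2 changes was 1.45 and did not pass (edgeR adjusted p = 1.00). Akap13, a kinase anchor gene, did likewise, at 65.4 and 105 CPM in KO_Diff against 64.0 and 54.2 CPM in KO_Cul, and 62.0 and 40.4 CPM in WT_Diff against 83.6 and 85.7 CPM in WT_Cul, with a difference of 1.26 (edgeR adjusted p = 1.00). The nearest libraries were almost equal, at 27.0 and 27.3 CPM in WT for Dyrk2 and 65.4 and 64.0 CPM in KO for Akap13. Only named genes were searched for this pattern. Both genes were named for a small p for the difference between genotypes, which favours it, so the pattern is not a separate result. Its share over all genes was not counted.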

How the results depend on the processing

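The count of genes that passed in KO_Diff against KO_Cul was 0 with RLE factors, no filter, limma, the fit of 8 libraries and the index as a block. It was 1120 with DESeq2 (947 higher, 173 lower). Leaving out each library in turn gave 0 to 2672 genes (0 to 1721 higher, 0 to 951 lower): 0 without either KO_Cul library, 140 without KO_Diff index 1 (122 higher, 18 lower) and 2672 without KO_Diff index 0. DESeq2, as alternatives added after seeing the data, called 2429 without KO_Diff index 0 (1478 higher, 951 lower) and 413 without KO_Diff index 1 (300 higher, 113 lower). The cause was not tested. The block is on a number that the libraries share only by name: the deviations of same-numbered KO_Cul and KO_Diff libraries correlated at -0.08, and the block called 0 genes. Those of same-numbered KO and WT libraries within a medium correlated at 0.67 and 0.77, and those of WT_Cul and WT_Diff at -0.12. The difference between genotypes passed for 0 genes under all 12 of its alternatives. Reversed signs were found for Cdk1 (0.15) and Cenpa (1.02) without KO_Cul index 0, for Aurkb (0.14) without KO_Diff index 1 (the lowest values, all without KO_Diff index 0, were -1.89, -1.96 and -2.26), and for Mki67, whose log2 difference of 0.04 was -0.000888 with RLE factors, -0.22 with the block and with limma, -0.47 without KO_Cul index 1 and, over the libraries left out, -1.46 without KO_Diff index 0 to 0.75 without index 1. The other genes run under these alternatives kept their sign; genes given only as list members or markers, such as Dcn and Pdgfra, were not run. How depth limits these tests was not examined.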
